A study of Mus musculus with 36 samples.

Results

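Hearts carrying an inducible, active Akt1 were compared after 6 weeks of transgene expression with hearts sampled before induction. The comparison took the 3 hearts labelled as 6 weeks on without later repression and the 4 control hearts of the same double transgenic line, each measured on the mouse chips 430A and 430B, which is 14 of the 36 arrays and 7 of the 18 hearts of the series. Hearts in both groups came from Tet-myrAkt1/?MHC-tTA mice, as the labels spell the line, with a character lost before MHC. In this line, as it is known from the field, the tetracycline transactivator is made in cardiomyocytes under the alpha myosin heavy chain promoter and switches on a myristoylated, membrane-bound Akt1. The 6-week hearts came from mice 18 weeks old and the hearts before induction from mice 12 weeks old, all labelled male. Both groups carry both transgenes, and no uninduced heart of 18 weeks is among the samples, so age and duration of induction cannot be told apart. RNA was taken from whole heart tissue of individual mice, so a change in cell composition and a change within a cell type enter the same signal.

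Akt1 is a serine/threonine kinase that acts downstream of the insulin and IGF-1 receptors. It promotes protein synthesis through mTOR, restrains the FoxO transcription factors that drive atrophy genes, and raises glucose uptake. Brief activation in cardiomyocytes is known to enlarge the heart without loss of function, whereas long activation is known to lead to contractile failure.

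Values below are deposited MAS5 signals on a linear scale, listed heart by heart in the order of the replicate numbers. A log2 change is the 6-week mean minus the mean before induction on the scale of log2(signal + offset), with the standard error of the model (n = 3 and 4 hearts). A gene rose or fell when limma's moderated test, adjusted by the Benjamini-Hochberg method over all probe sets of its chip, gave an adjusted p under 0.05. On chip 430A 1318 of 15565 tested probe sets were higher (8.47%) and 2019 lower (13.0%), and on chip 430B 550 of 17519 were higher (3.14%) and 474 lower (2.71%). With 1 probe set per gene, 1110 of 14650 genes rose (7.58%) and 1192 fell (8.14%), and their median log2 change was -0.05. This split depends on the scaling of the arrays: when arrays were set to a common median instead of a common trimmed mean, 11.8% of genes were higher and 3.54% lower, and the median of all genes was 0.12. Each count of a list below is read against the share of all genes in its own setting. Genes read on chip 430A, the chip used where possible, had larger shares, with 9.34% of 9276 higher and 11.7% lower. At a common median the shares on that chip were 15.4% and 4.96%. A gene is given by its brightest probe set, and its other probe sets often did not pass: of 126 called list genes with several tested probe sets, 34 had all of them called the same way, 92 had some that were not, and 1, Akt1, had an opposite call. Of 273 list genes not called by the brightest probe set, 80 had another that was called. Among the genes named below, 1 of 2 tested probe sets carried the call for Fhl1, Des, Ryr2, Kcnj11, Vcl, Col3a1, Ace, Vegfa, Epas1, Slc27a1, Idh2, Suclg2, Atp5g2, Mcm2, Btg2, Scara5 and Arntl, and 1 of 3 for Hadhb, Esrrb, Akt2, Fbxo32 and Shmt2. For Ak4 it was 1 of 4, for Tgfb2, Adcy5 and Map4 2 of 4, for Ctsb and Aldh18a1 2 of 5, and for Col1a2 2 of 3. The largest rises and falls of a chip were picked among called probe sets whose hearts do not overlap between the groups. A gap between the groups for these genes is therefore a description. The hearts of 22.6% of all tested genes do not overlap between the groups, and each gap named below is read against that share.

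Some hearts stand apart and touch the results. Control hearts 3 and 4 carry the male label, yet Xist read 5412 and 3271 in them, against 136 to 289 in the other hearts of the series. Their Eif2s3y signals, from a gene on the Y chromosome, were 2.80 and 3.60, where the other hearts had 372 to 788. Without these 2 hearts 4.32% of genes rose and 3.95% fell, with 2 control hearts left. Of 163 probe sets named by a fixed rule and called, 128 kept their call without them, and list counts that changed without them are given both ways. In 6-week heart 3 the 3' to 5' signal ratio of Actb on chip 430A was 3.71, against 1.36 and 1.24 in 6-week hearts 1 and 2 and 1.21 to 1.61 in the control hearts. Leaving that heart out, 5.82% of genes rose and 5.97% fell. With the Actb ratio as a covariate 14 of the named probe sets lost their call.

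Akt1 itself was measured by 3 probe sets that do not move together. The first, on chip 430A, read 2931, 2312 and 1851 in the 6-week hearts, against 514, 517, 508 and 652 in the control hearts, a log2 change of 2.00 ± 0.17 (adjusted p = 7.3e-07). The 6-week values lie above all control values, at about the level of the 2-week hearts, whose mean was 2878 ± 645 (SD, n = 4). The second, on the same chip, read 537, 726 and 860.4 at 6 weeks and 989, 814, 1194 and 1179 before induction, with a log2 change of -0.54 ± 0.16 (adjusted p = 0.0236) that lost its call without 6-week heart 1, control heart 3 or control heart 4, and at a common median. The third, on chip 430B, had a log2 change of -0.09 ± 0.23 (adjusted p = 0.886). The sources used here do not say which of them reads the transgene.

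Among the insulin and PI3-kinase genes, members that dampen signalling moved in both directions. Ddit4, an inhibitor of mTOR complex 1 also known as REDD1, read 4856, 4636 and 2883 at 6 weeks and 571, 496, 610.5 and 349.6 before induction, a log2 change of 2.90 ± 0.23 (adjusted p = 2.35e-07). Every 6-week heart was far above the control hearts. Irs1, the adaptor that couples the insulin receptor to PI3-kinase, fell to 304, 418 and 391 in the 6-week hearts, against 1389, 1147, 1130.1 and 1030.5 before induction (log2 change -1.54 ± 0.14, adjusted p = 1.57e-06). Akt2, the isoform needed for insulin-stimulated glucose uptake, fell as well (log2 change -0.81 ± 0.12, adjusted p = 0.000178). The mTOR inhibitor Tsc2 had a log2 change of -1.05 ± 0.21 (adjusted p = 0.00156), which was -0.67 without 6-week heart 3. Of 23 measured members, 4 rose and 3 fell, with a median log2 change of 0.03, beside 7.58% and 8.14% of all genes. Akt1, the gene that the experiment induces, is 1 of the 4 rises, so that rise says nothing about the rest of the list. Without control hearts 3 and 4 the counts were 3 and 3, beside 4.32% and 3.95% of all genes.

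**Figure D1:**
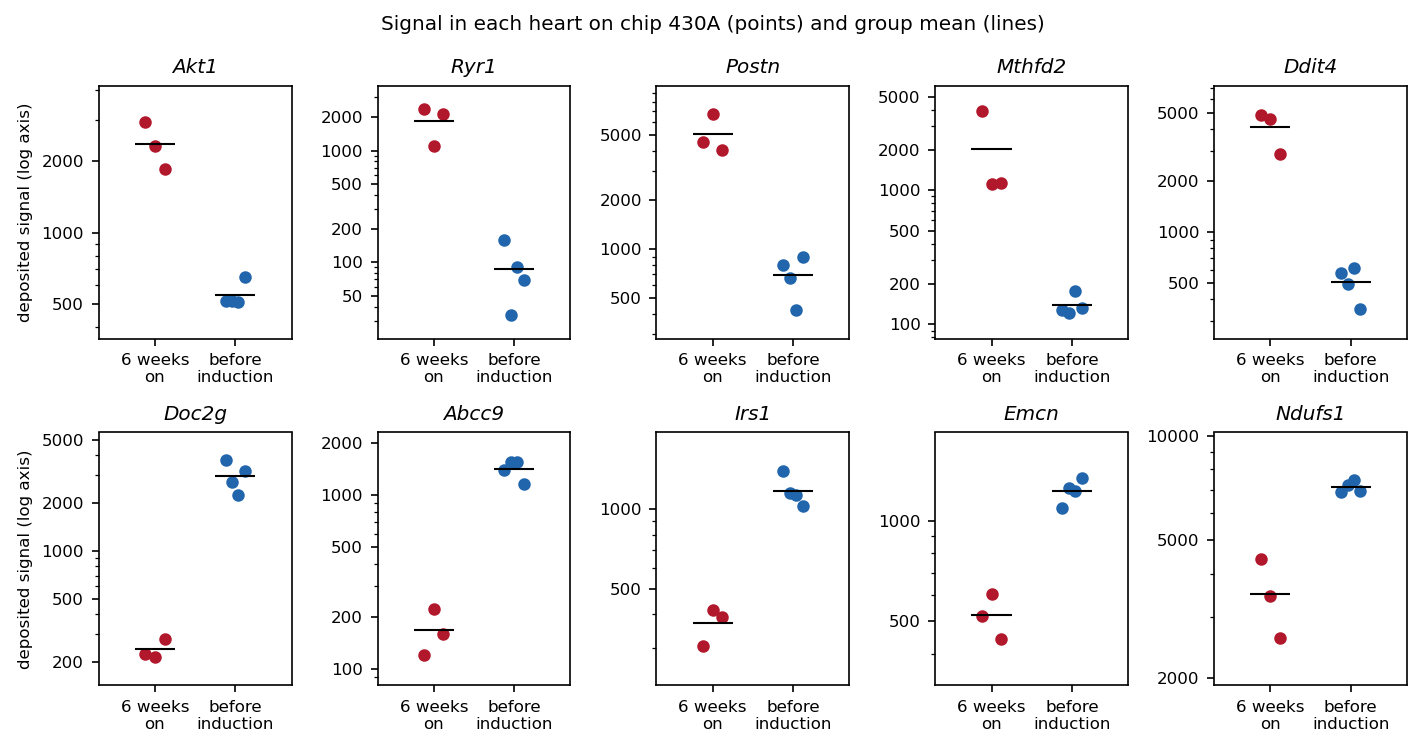
Deposited signal on chip 430A (vertical log axis) of 10 genes, with 6-week hearts (n = 3) left of hearts before induction (n = 4). Points are hearts and lines are group means. These genes were picked from called ones, so the gap between the groups is a description (the hearts of 22.6% of all tested genes do not overlap), and 6-week heart 1 stands highest for Mthfd2 at 3876.

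A light chain of skeletal muscle type was among the largest rises of the chip, while the slow heavy chain rose with less certainty. Myl1, an essential myosin light chain of skeletal muscle and of the fetal heart, read 24316, 16994 and 20717 at 6 weeks, against 2435, 1477, 2109.5 and 3491 before induction (log2 change 3.14 ± 0.23, adjusted p = 5.93e-08). The lowest 6-week heart was well above the highest control heart. Myh7, the slow beta myosin heavy chain, read 6316, 7636 and 2951 in the 6-week hearts and 4474, 1559, 999.8 and 893 in the control hearts, where control heart 1 lay above 6-week heart 3. Its log2 change of 1.69 ± 0.49 (adjusted p = 0.0192) lost its call without 6-week heart 1 (adjusted p = 0.064), 6-week heart 2 (0.0802), control heart 3 (0.0578) or control heart 4 (0.0618), and without control hearts 3 and 4 (0.258). The adult alpha heavy chain Myh6 did not pass the test by its brightest probe set (log2 change -0.25 ± 0.19, adjusted p = 0.379), but its dimmer probe set was lower: it read 1015, 815 and 163 at 6 weeks and 2331, 2856, 3383 and 4719 before induction (log2 change -2.49 ± 0.87, adjusted p = 0.0486). Of 17 measured thick and thin filament genes 3 rose and 0 fell (median log2 change -0.07), and 1 rose without control hearts 3 and 4, without 6-week heart 1 or without 6-week heart 2.

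Most M-band and Z-disc genes did not pass, and Myom2 was the 1 that fell. Myom2, an M-band protein of fast and adult cardiac muscle, read 955, 1095 and 714 at 6 weeks and 6706, 3588, 4809 and 3492 before induction (log2 change -2.24 ± 0.35, adjusted p = 0.00023), and 3 of its 4 tested probe sets were lower. Its level at 2 weeks had been lower still, 265 ± 155 (SD, n = 4). The intermediate filament protein desmin, Des, read 13144, 9628 and 11094 in the 6-week hearts, against 9163, 5682, 5334 and 5489 in the control hearts (log2 change 0.84 ± 0.16, adjusted p = 0.00142). Flnc, a filamin that anchors actin at the Z-disc, rose with a log2 change of 1.55 ± 0.35 (adjusted p = 0.00392). Among 18 measured members 4 rose, 1 fell and 13 did not pass (median 0.07), beside 7.58% of all genes higher and 8.14% lower. Without control hearts 3 and 4, 3 rose and 1 fell, and with quantile normalization 4 rose and 2 fell.

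The natriuretic peptides, the usual transcripts of a failing ventricle, did not pass the test. Nppa read 11964, 12953 and 4572 in the 6-week hearts and 4213, 2341, 1459 and 26347 in the control hearts, with control heart 4 the highest of all 7 (log2 change 1.00 ± 0.73, adjusted p = 0.35). Without that heart the log2 change was 1.85 (adjusted p = 0.0334). The summed signal of the atrial marker list, which includes Nppa, was 7076 to 17971 in the 6-week hearts and 3138 to 69426 in the control hearts, and its part in the spread of Nppa was not tested. Nppb read 3717, 6457 and 1829.7 and 7635, 3902, 1469 and 2869.9 in the 6-week and control hearts (log2 change 0.07 ± 0.41, adjusted p = 0.917). Other stretch-responsive genes did rise: Fhl1, a LIM protein of the sarcomere, by 1.06 ± 0.17 (adjusted p = 0.000335), and Xirp1, an actin-binding protein of the intercalated disc, by 0.82 ± 0.16 (adjusted p = 0.00162), both as log2 changes. The list held 8 measured genes, of which 3 rose and 0 fell with all hearts and without control hearts 3 and 4. Over all genes 7.58% and 4.32% rose in these settings. Beside Fhl1 and Xirp1 the third rise was Timp1 (log2 change 2.77), which is also on the list of matrix proteases and inhibitors below.

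Some calcium release genes of the sarcoplasmic reticulum rose, and phospholamban, a regulator of uptake, fell. Ryr1, the calcium release channel typical of skeletal muscle, read 2355, 1098 and 2109 at 6 weeks, against 156, 33.3, 89.9 and 69.8 before induction (log2 change 3.80 ± 0.39, adjusted p = 3.77e-06), and its chip 430B probe set rose too (log2 change 3.19). No control heart came near the 6-week values. The cardiac channel Ryr2 had a log2 change of 0.62 ± 0.14 (adjusted p = 0.00377) by its brighter probe set, and the other did not pass (log2 change -0.14 ± 0.38, adjusted p = 0.833). Calsequestrin buffers calcium inside the reticulum. Its cardiac form Casq2 read 14330.5, 11863 and 19675 in the 6-week hearts and 8898, 6306, 7246 and 6499 in the control hearts (log2 change 1.06 ± 0.19, adjusted p = 0.000743). The skeletal form Casq1 had a log2 change of 2.10 ± 0.37 (adjusted p = 0.000625), which was 1.23 without control hearts 3 and 4. Triadin, Trdn, which ties calsequestrin to the channel, gave the largest rise of chip 430A by 1 of its probe sets (3758, 3018 and 5317 at 6 weeks, 357, 46.3, 205 and 71.2 before induction, log2 change 4.41 ± 0.47), but its brightest probe set did not pass (log2 change 0.27 ± 0.18), and 2 of its 6 tested probe sets were higher.

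Pln, the phospholamban that restrains the calcium pump, fell to 14168, 13496 and 15895 in the 6-week hearts, against 26126, 24287, 20593 and 24442 in the control hearts (log2 change -0.71 ± 0.13, adjusted p = 0.000743), by all 3 of its tested probe sets. The pump itself, Atp2a2 or SERCA2, did not pass the test by its brightest probe set (log2 change -0.26 ± 0.19, adjusted p = 0.353), and 2 of its 6 tested probe sets were lower. On the list of 19 measured calcium handling genes 4 rose and 2 fell (median 0.07), and 4 and 1 did so without control hearts 3 and 4. Leaving out 6-week heart 3 or control heart 2 also left 1 fall.

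Coupling between cardiomyocytes involves gap junctions, desmosomes and adherens junctions, and parts of each were lower. Gja1, the main ventricular connexin, read 2846, 2967 and 3099.7 at 6 weeks and 8470.1, 5097, 6308 and 5070.5 before induction (log2 change -1.03 ± 0.16, adjusted p = 0.000225), and 4 of its 6 tested probe sets were lower. The desmosomal cadherin Dsc2 fell with a log2 change of -1.45 ± 0.18 (adjusted p = 3e-05). Tjp1, which scaffolds the gap junction edge, and Ctnnb1, the beta catenin of the adherens junction, fell by smaller amounts (log2 changes -0.68 ± 0.12 and -0.52 ± 0.13), and Ctnnb1 lost its call at a common median (adjusted p = 0.211). Vinculin, Vcl, which links those junctions to actin, rose (log2 change 0.86 ± 0.16, adjusted p = 0.000993). Of 11 measured intercalated disc genes 2 rose and 3 fell with all hearts and also without control hearts 3 and 4, while 1 rose when any 6-week heart, control heart 2 or control heart 4 was left out.

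Ion transport genes mostly did not pass. The sodium pump beta subunit Atp1b1 read 7432, 6509 and 7625 in 6-week hearts and 4765, 3377, 4077 and 3319.7 in control hearts (log2 change 0.89 ± 0.13, adjusted p = 0.000127), with 4 of 5 tested probe sets higher. Kcnj11, the pore of the cardiac ATP-sensitive potassium channel, fell at low signal, 51.0, 42.7 and 65.7 at 6 weeks and 172, 136, 131 and 192 before induction (log2 change -1.005 ± 0.22, adjusted p = 0.0039). Its regulatory partner Abcc9, or SUR2, was among the largest falls: 119.8, 222 and 159.5 in 6-week hearts and 1400.2, 1547, 1547 and 1164 in control hearts (log2 change -2.77 ± 0.17, adjusted p = 9.77e-09), with 3 of 3 tested probe sets lower. Abcc9 is expressed in cardiomyocytes and, with the vascular pore subunit Kcnj8, in pericytes and smooth muscle, and Kcnj8 fell too (log2 change -0.94 ± 0.14, adjusted p = 0.000141). On the list of 18 measured genes of ion channels and gap junctions 2 rose and 2 fell, and the counts were 1 and 2 without control hearts 3 and 4. Without 6-week heart 1, 6-week heart 2 or control heart 2 there was 1 rise. Kcnip2, the subunit of the transient outward current, was called on 1 chip: on 430B it read 31.7, 40.8 and 23.5 at 6 weeks and 558, 251, 453 and 309 before induction (log2 change -3.15 ± 0.73, adjusted p = 0.0123, and 0.0741 without control hearts 3 and 4), whereas the 430A probe set did not pass (log2 change -0.55 ± 0.24).

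Among receptor signalling genes the changes went both ways. Adcy5, a cardiac adenylyl cyclase, read 1647, 1531 and 1266 at 6 weeks, against 431, 549.8, 393 and 377 before induction on chip 430B (log2 change 1.74 ± 0.21, adjusted p = 6.32e-05). The G protein subunit Gnb3 fell to 112, 76.8 and 76.5 in the 6-week hearts, against 806, 1153, 481 and 597 in the control hearts (log2 change -2.49 ± 0.25, adjusted p = 3.04e-06). Rgs4, which shortens Gq and Gi signals, fell as well (log2 change -1.68 ± 0.24, adjusted p = 0.000136). In all 3 of 20 measured genes rose and 4 fell (median -0.01), beside 7.58% and 8.14% of all genes, 4 and 2 did at a common median, and 2 and 4 did without control hearts 3 and 4. The kinase Grk5 (log2 change 0.75 ± 0.17) was lost in that setting (adjusted p = 0.0548).

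Extracellular matrix genes were broadly higher. Of 33 measured collagen and matrix genes 20 rose and 0 fell, beside 7.58% of all genes higher, and 32 of the 33 log2 changes were positive. The median log2 change was 0.89, against -0.05 over all genes. The count was 18 without control hearts 3 and 4, 21 without 6-week heart 3, and 19 to 23 when any 1 of the 7 hearts was left out. With arrays at a common median it was 26. The summed signal of the fibroblast marker list was 38833 to 43748 in 6-week hearts and 40388 to 50066 in control hearts, and its part in the matrix rise was not tested.

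Matricellular proteins, which signal in the matrix rather than build fibres, gave the largest changes of the list. Periostin, Postn, read 4513, 6688 and 4054 at 6 weeks and 794, 662, 423 and 900.5 before induction (log2 change 2.80 ± 0.23, adjusted p = 3.52e-07). Thbs4, a thrombospondin of stressed heart muscle, read 1353, 3247 and 1181 in the 6-week hearts and 189, 34.9, 27.3 and 30.3 in the control hearts (log2 change 4.08 ± 0.46, adjusted p = 8.72e-06). Both were separated by a wide gap, although control heart 1 stood above the other controls for Thbs4. Cilp, a secreted protein that binds TGF-beta, gave 2689, 3451 and 3964 against 460.0, 190.2, 210.0 and 442 in 6-week and control hearts on chip 430B (log2 change 3.41 ± 0.28, adjusted p = 1.25e-06). Among the fibre-forming chains Col5a2 rose (log2 change 1.38 ± 0.20, adjusted p = 0.000139). Col1a1, Col1a2 and Col3a1, chosen after their values were seen because they form the bulk of scar collagen, had log2 changes of 1.12 ± 0.26, 1.21 ± 0.23 and 0.69 ± 0.16. Fibronectin, Fn1, did not pass (log2 change 0.58 ± 0.25, adjusted p = 0.102). Timp1, an inhibitor of matrix metalloproteases, read 1078, 1374 and 701 at 6 weeks and 134, 22.7, 112 and 223 before induction (log2 change 2.77 ± 0.42, adjusted p = 0.000187), whereas 1 of the 12 measured proteases and inhibitors fell and no other rose, and without control hearts 3 and 4 none fell.

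Among TGF-beta, angiotensin and endothelin genes, Tgfb2 and Agt were higher and 1 receptor lower. Tgfb2, a TGF-beta isoform, read 561, 669.8 and 503 at 6 weeks and 274, 112, 206 and 156 before induction (log2 change 1.44 ± 0.22, adjusted p = 0.000234), by 2 of its 4 tested probe sets. Angiotensinogen, Agt, read 526, 482 and 844 in the 6-week hearts, against 55.5, 38.8, 24.2 and 195 in the control hearts, where heart 4 was the highest (log2 change 2.51 ± 0.45, adjusted p = 0.000741). Ace, which converts angiotensin I to angiotensin II, had a log2 change of 1.35 ± 0.21 (adjusted p = 0.000239). The angiotensin II receptor Agtr1a fell to 413, 365 and 418 at 6 weeks on chip 430B, against 1023, 1273, 1079 and 954 before induction (log2 change -1.41 ± 0.15, adjusted p = 1.33e-05). Of 14 measured genes of this list 5 rose and 1 fell (median 0.11), with 4 and 1 without control hearts 3 and 4 and 3 rises without 6-week heart 2.

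**Figure D2:**
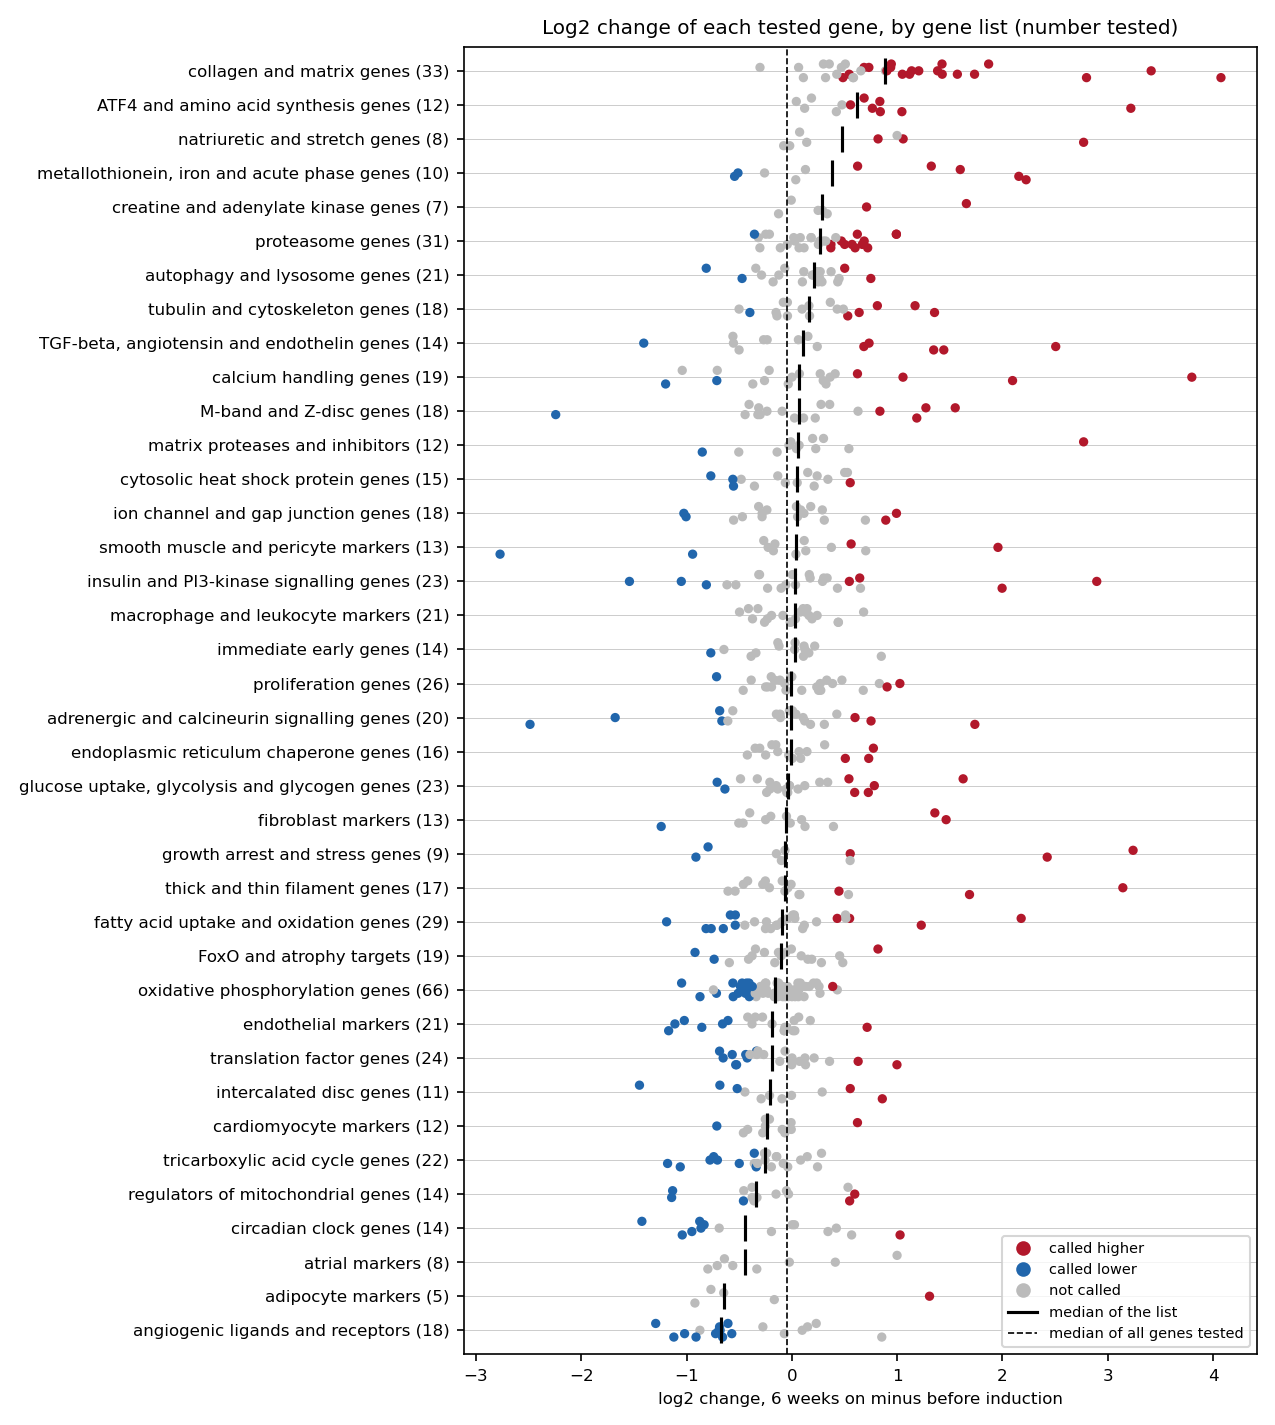
Log2 change of each tested gene, 6 weeks on minus before induction (horizontal axis), by gene list (rows). Points are genes, coloured by whether they rose, fell or did not pass the test; black bars are list medians and the dashed line is the median of all genes, -0.05. The matrix list lies to the right of that line with a median of 0.89 and the angiogenic list to its left with a median of -0.67.

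Many angiogenic genes were lower. None of 18 measured ligands, receptors and regulators rose and 11 fell, beside 8.14% of all genes lower, with a median log2 change of -0.67. The number that fell was 6 without control hearts 3 and 4, where 1 rose, 6 to 9 when any 1 heart was left out, the fewest without 6-week heart 1, and 5 with arrays at a common median. Vegfb, a VEGF ligand abundant in cardiomyocytes, read 2197, 2237 and 1822 at 6 weeks, against 4496, 3904, 3988 and 4701 before induction (log2 change -1.02 ± 0.12, adjusted p = 1.85e-05). Vegfa, the main growth factor of capillaries, read 535, 459 and 498 in the 6-week hearts and 707, 870.0, 1335 and 1104 in the control hearts (log2 change -0.91 ± 0.16, adjusted p = 0.000781). Each 6-week heart lay below each control heart for these probe sets, where the hearts of 22.6% of all tested genes do not overlap. But the other tested probe set of Vegfa did not pass and its hearts overlapped: it read 380.4, 379 and 208 at 6 weeks and 436, 343, 560.0 and 694 before induction (log2 change -0.58 ± 0.27, adjusted p = 0.126). Apelin, Apln, and the platelet-derived ligand Pdgfb, which recruits pericytes, had log2 changes of -0.72 ± 0.17 (adjusted p = 0.00468) and -0.69 ± 0.16 (adjusted p = 0.00531). Angpt2 was under the signal filter and was not tested: it read 97.7, 51.4 and 24.4 in the 6-week hearts and 73.8, 51.6, 122 and 58.3 in the control hearts, which overlap. Epas1, or HIF-2 alpha, had a log2 change of -1.29 ± 0.34 (adjusted p = 0.0109), which lost its call without 6-week heart 3 (adjusted p = 0.0557) or without control hearts 3 and 4 (0.0847).

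Endothelial markers did not fall evenly. Endomucin, Emcn, a surface protein of capillary and venous endothelium, read 520.0, 603 and 443 at 6 weeks, against 1097, 1257, 1231 and 1342 before induction (log2 change -1.17 ± 0.12, adjusted p = 3.14e-06). The endothelial transcription factor Erg fell on chip 430B (log2 change -1.11 ± 0.17, adjusted p = 0.000578), and Pecam1, an adhesion molecule of all endothelium, had a log2 change of -1.02 ± 0.22 (adjusted p = 0.00314), or -0.64 without 6-week heart 3. Cdh5, the endothelial cadherin, read 934, 1401 and 689 in 6-week hearts and 1332, 1122, 1045 and 970.3 in control hearts and did not pass (log2 change -0.19 ± 0.18, adjusted p = 0.484). Cldn5, the endothelial tight junction claudin, did not pass either (log2 change 0.17 ± 0.18, adjusted p = 0.533). Both were chosen after their values were seen. Of 21 measured markers 1 rose and 6 fell, 3 fell without 6-week heart 1, and none rose and 4 fell without control hearts 3 and 4. Tek, Kdr and Flt1 are also on the angiogenic list, so the counts of both lists can share genes. The list's median was -0.19, or 0.01 with arrays at a common median. The summed marker signal was 26176 to 34561 in the 6-week hearts and 33534 to 38015 in the control hearts. In whole hearts, fewer cells of a type and less RNA per cell cannot be told apart. Most mural cell genes did not pass. Of 13 measured smooth muscle and pericyte markers 2 rose and 2 fell (median 0.04), beside 7.58% and 8.14% of all genes. Abcc9 and Kcnj8 were the falls, and the smooth muscle calponin Cnn1 was among the rises (log2 change 1.96 ± 0.33, adjusted p = 0.00048). The summed signal of these markers was 16532 to 20389 in the 6-week hearts and 17018 to 20390 in the control hearts, which overlap.

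Mitochondrial energy genes were lower in part, and how many depends on the scaling. Among 66 measured oxidative phosphorylation genes 1 rose and 18 fell (median log2 change -0.16), beside 7.58% and 8.14% of all genes. But with arrays at a common median the counts were 2 and 3 and the median 0.05, beside 11.8% and 3.54% of all genes. With quantile normalization 2 rose and 23 fell (median -0.08), beside 8.15% and 7.11% of all genes. Without 6-week heart 3 none rose and 10 fell, where 5.97% of all genes fell. Without control hearts 3 and 4 none rose and 12 fell, where 3.95% of all genes fell. Ndufs1, the largest core subunit of complex I, read 4416, 3455 and 2618 at 6 weeks and 6887, 7201, 7461 and 6940.4 before induction (log2 change -1.05 ± 0.13, adjusted p = 3.59e-05). Ndufv1, the complex I subunit that binds NADH, fell by 3 of 3 probe sets (log2 change -0.87 ± 0.12, adjusted p = 7.27e-05), and so did Atp5g2, a ring subunit of ATP synthase, by its brightest (log2 change -0.72 ± 0.11, adjusted p = 0.000216). These 3 falls kept their call with arrays at a common median, with log2 changes of -0.84, -0.67 and -0.51.

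In the tricarboxylic acid cycle 8 of 22 measured genes fell and none rose (median -0.26), beside 8.14% of all genes lower. The number that fell was 4 without 6-week heart 3, 4 without control hearts 3 and 4, 3 at a common median and 10 with quantile normalization. In that order 5.97%, 3.95%, 3.54% and 7.11% of all genes fell. Suclg2, a subunit of succinyl-CoA ligase, read 646, 544 and 427 in 6-week hearts, against 1153, 1399, 1415 and 1137 in control hearts (log2 change -1.18 ± 0.14, adjusted p = 1.81e-05). Mitochondrial isocitrate dehydrogenase, Idh2, had a log2 change of -1.06 ± 0.15 (adjusted p = 8.93e-05). Both kept their call at a common median. Ppargc1a, the coactivator PGC-1 alpha that drives mitochondrial gene expression, read 534, 418 and 375 at 6 weeks and 954, 924, 1172 and 1044 before induction (log2 change -1.13 ± 0.18, adjusted p = 0.000327), and 5 of 5 tested probe sets were lower. Its nuclear receptor partner Ppara did not pass (log2 change -0.38 ± 0.27, adjusted p = 0.331). The orphan receptor Esrrb fell (log2 change -1.14 ± 0.23, adjusted p = 0.00204), and of the 14 measured regulators 2 rose and 3 fell, with none higher and 2 lower without control hearts 3 and 4, and none higher without 6-week heart 1, 6-week heart 3, control heart 2 or control heart 4.

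Fuel handling showed no single direction. Pdk4, the kinase that shuts pyruvate dehydrogenase and spares glucose, read 11770.2, 10556 and 5324 at 6 weeks, against 2734, 1469, 2197 and 1433 before induction (log2 change 2.18 ± 0.29, adjusted p = 5.75e-05). Slc25a20, the carnitine carrier of the inner mitochondrial membrane, rose by 2 of 2 probe sets (log2 change 1.23 ± 0.24, adjusted p = 0.00142). The fatty acid transport protein Slc27a1 fell to 226, 233 and 242 in 6-week hearts, against 553, 571, 724 and 555 in control hearts (log2 change -1.19 ± 0.15, adjusted p = 3.15e-05). Hadhb, a subunit of the trifunctional protein of beta oxidation, fell less (log2 change -0.65 ± 0.13, adjusted p = 0.00139). Of 29 measured fatty acid genes 4 rose and 7 fell, and 3 and 3 did without control hearts 3 and 4. Slc2a4, the insulin-responsive glucose transporter GLUT4, fell (log2 change -0.64 ± 0.12, adjusted p = 0.00116, and 0.0617 at a common median), while the lactate exporter Slc16a3 and pyruvate kinase, Pkm, rose (log2 changes 1.63 ± 0.38 and 0.54 ± 0.11). In that list of 23 measured genes 5 rose and 2 fell, and without control hearts 3 and 4 the counts were 4 and 2. Ckb, the brain-type creatine kinase of fetal heart, read 3923, 3500.5 and 3562 at 6 weeks and 1288, 1216, 918 and 1113 before induction (log2 change 1.66 ± 0.16, adjusted p = 2.58e-06), and with Ak4 it made up the 2 rises among 7 measured kinases, with no fall, and 4 rose without control heart 1.

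Genes of serine, folate and amino acid metabolism, many of them targets of the transcription factor ATF4, tended to be higher. ATF4 is made when the integrated stress response slows general translation, and it binds composite sites close to the letters TGATGNAA. Of 16 list genes on the chips 12 passed the signal filter, 7 of these rose and none fell, beside 7.58% of all genes higher. The 12 log2 changes were all positive (median 0.62). The number of rises was 6 without control hearts 3 and 4, where 4.32% of all genes rose. It was 5 to 8 when any 1 heart was left out, the fewest without 6-week heart 1. Mthfd2, a mitochondrial folate enzyme, read 3876, 1120.4 and 1139 at 6 weeks, against 129, 122, 177 and 133 before induction (log2 change 3.22 ± 0.32, adjusted p = 2.58e-06). Asparagine synthetase, Asns, chosen after its values were seen as the classic ATF4 target, read 859.7, 325 and 366 in 6-week hearts and 242, 294, 205 and 298 in control hearts (log2 change 0.76 ± 0.24, adjusted p = 0.0269). For both genes 6-week heart 1 was the highest of all. Without that heart Mthfd2 stayed higher (log2 change 2.64, adjusted p = 2.16e-06), whereas Asns lost its call (log2 change 0.36, adjusted p = 0.196), as it did without control heart 3 (0.0747) and without control hearts 3 and 4 (0.125).

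The promoters of these 2 genes are shown because one holds the searched letters and the other, the strongest rise of the list, does not. They are RefSeq sequences on build GRCm38.p6, 250 bases before and 50 after the annotated gene start, with a match to TGATGNAA on either strand in capitals. Asns lies at chr6:7693160-7693459 on the minus strand, where the match starts 23 bases before the gene start, and Mthfd2 at chr6:83317555-83317854 on the minus strand.
Asns: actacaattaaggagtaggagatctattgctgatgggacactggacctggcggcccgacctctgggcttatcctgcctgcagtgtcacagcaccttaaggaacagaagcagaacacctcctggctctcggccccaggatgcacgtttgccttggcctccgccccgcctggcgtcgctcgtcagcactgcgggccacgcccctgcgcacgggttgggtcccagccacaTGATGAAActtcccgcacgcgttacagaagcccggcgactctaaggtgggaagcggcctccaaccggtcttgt
Mthfd2: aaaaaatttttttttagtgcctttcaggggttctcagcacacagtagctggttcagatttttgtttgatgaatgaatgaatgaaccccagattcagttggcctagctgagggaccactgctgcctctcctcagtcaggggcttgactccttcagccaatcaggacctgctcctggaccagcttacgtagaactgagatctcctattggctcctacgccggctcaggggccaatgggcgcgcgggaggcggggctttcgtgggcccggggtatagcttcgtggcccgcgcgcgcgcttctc
In all, 5 of the 15 list genes with a promoter in the table held the letters, which occurred in 1304 of 32851 promoters (3.97%). These were Asns, Trib3, Chac1, Slc7a11 and Fgf21, of which Asns was called higher. By their brightest probe sets Trib3 and Chac1 did not pass the test, although 1 of 2 tested Trib3 probe sets was higher, and Slc7a11 and Fgf21 were under the signal filter. A match describes these letters in this window and is not a measured binding site.

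Other members of the ATF4 list rose by less than Mthfd2. Slc3a2, the heavy chain of amino acid exchangers, read 2252, 2246 and 1175 at 6 weeks and 758, 934, 735 and 1016 before induction (log2 change 1.05 ± 0.19, adjusted p = 0.000854). The stress-responsive factor Atf5 (log2 change 0.84 ± 0.14), the proline synthesis enzyme Aldh18a1 (0.84 ± 0.15) and the mitochondrial serine enzyme Shmt2 (0.69 ± 0.15) rose as well. Ddit3, or CHOP, read 920.2, 460.4 and 713 in 6-week hearts and 474, 456, 638 and 414 in control hearts, which overlap (log2 change 0.42 ± 0.26, adjusted p = 0.252), while 1 of its 2 tested probe sets was lower. Endoplasmic reticulum chaperones showed 3 rises and no fall among 16 measured genes, 2 without control hearts 3 and 4, with a median of -0.01. Calr, the calcium-binding chaperone calreticulin, had a log2 change of 0.51 ± 0.11 (adjusted p = 0.00332).

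Growth arrest genes moved in both directions, with p21 among the largest rises of the chip. Cdkn1a, the p21 inhibitor of cyclin-dependent kinases, read 4340.5, 3588 and 2320.0 at 6 weeks and 459.7, 320.3, 187 and 306 before induction (log2 change 3.24 ± 0.22, adjusted p = 3.58e-08), by 2 of 2 probe sets. Gadd45g, which activates stress kinases and slows the cycle, had a log2 change of 2.42 ± 0.25 (adjusted p = 3.27e-06). Btg2, an antiproliferative p53 target, fell (log2 change -0.91 ± 0.19, adjusted p = 0.00212), so the 9 measured genes of the list split into 3 rises and 2 falls, or 1 fall without 6-week heart 3, and 2 and 1 without control hearts 3 and 4. Pcna, the sliding clamp of DNA replication, fell to 667, 1091 and 579.5 in the 6-week hearts, against 1105, 1313, 1188 and 1488 in the control hearts (log2 change -0.72 ± 0.16, adjusted p = 0.00448). Of 26 measured proliferation genes 2 rose and 1 fell, and both rises, Mcm2 and Mcm6, lost their call without 6-week heart 3 (adjusted p = 0.203 and 0.166) and without control hearts 3 and 4.

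Protein turnover genes were led by the proteasome. Of 31 measured subunits 12 rose and 1 fell (median 0.26), where 7.58% of all genes rose. Without control hearts 3 and 4, 7 rose and none fell, where 4.32% of all genes rose, and at a common median 15 rose, where 11.8% did. Psma5, a subunit of the core ring, read 3310.5, 2897 and 3893 at 6 weeks, against 2058, 1854, 1755 and 1117 before induction (log2 change 0.99 ± 0.21, adjusted p = 0.00286). Psmd14, the lid deubiquitinase, and Psmc4, a base ATPase, had log2 changes of 0.62 ± 0.11 (adjusted p = 0.000654) and 0.69 ± 0.13 (adjusted p = 0.000886). Fbxo32, the atrogin-1 ubiquitin ligase that FoxO factors induce, fell to 946, 842 and 756 in the 6-week hearts, against 2657, 1467, 1702 and 1091 in the control hearts (log2 change -0.92 ± 0.23, adjusted p = 0.0094, and 0.0576 at a common median). The second muscle ligase, Trim63 or MuRF1, had a log2 change of -0.74 ± 0.17 on chip 430B (adjusted p = 0.0113, 0.0581 without control hearts 3 and 4 and 0.104 at a common median). Of 19 measured FoxO targets 1 rose, the stress protein Sesn3 (log2 change 0.82 ± 0.14), and these 2 ligases fell. Those counts lie near the shares of all genes, 7.58% higher and 8.14% lower. Without control hearts 3 and 4, 1 of the ligases fell, and at a common median 3 targets rose and none fell. Autophagy and lysosome genes showed 2 rises, among them cathepsin B, Ctsb (log2 change 0.50 ± 0.09), and 2 falls among 21 measured, or 1 fall without 6-week heart 3 or without control heart 1, 2 or 4. At a common median 7 rose and 1 fell, beside 11.8% and 3.54% of all genes.

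Among translation factors calls were more often lower than higher, except under common median scaling. Of 24 measured translation factors 2 rose and 8 fell (median -0.19), 1 and 5 without control hearts 3 and 4, 2 and 4 without 6-week heart 3, and 3 and 1 at a common median, where the median was 0.01. Eif3b, a scaffold subunit of initiation factor 3, rose (log2 change 1.00 ± 0.16, adjusted p = 0.00034), while the elongation factor Eef1a1 fell (log2 change -0.53 ± 0.12, adjusted p = 0.00421, and 0.0987 at a common median). Hspe1, the co-chaperone of the mitochondrial folding chamber, read 1987, 2447 and 2438 at 6 weeks and 3993, 4532, 3758 and 3481 before induction (log2 change -0.77 ± 0.14, adjusted p = 0.000831), and Hspd1, the chamber itself, had a log2 change of -0.56 ± 0.13 (adjusted p = 0.00429, and 0.0781 at a common median). In the list of 15 measured heat shock proteins 1 rose and 3 fell (median 0.05), none rose and 3 fell without control hearts 3 and 4, and 3 rose and 1 fell at a common median.

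Several of the largest falls belong to no list. Doc2g, a C2-domain protein, read 227, 216 and 282 in the 6-week hearts and 3698, 2724, 2231 and 3165 in the control hearts (log2 change -3.35 ± 0.23, adjusted p = 3.63e-08). Ptgds, a prostaglandin D synthase, fell by 2 of 2 probe sets (log2 change -2.16 ± 0.34), Adhfe1, a mitochondrial hydroxyacid dehydrogenase, by 2 of 2 (-2.41 ± 0.21), and the carboxylesterase Ces1d by 3 of 3 (-2.16 ± 0.40). On chip 430B Orai3, a store-operated calcium channel subunit, read 11.4, 57.7 and 12.8 at 6 weeks and 275, 265, 308 and 344 before induction (log2 change -3.16 ± 0.51, adjusted p = 0.000882), and Mylk4, a myosin light chain kinase family member, read 139, 210.1 and 302 at 6 weeks and 901, 1071, 1203 and 1271 before induction (log2 change -2.34 ± 0.22, adjusted p = 2.75e-06). None of their 6-week hearts reached a control heart, which the rule that picked the largest falls required. Among the rises without a list, Sh3gl3, an endophilin, read 848, 881 and 1274 in 6-week hearts, against 34.7, 168, 34.4 and 54.4 in control hearts (log2 change 3.20 ± 0.40, adjusted p = 2.78e-05). Ints6, an Integrator subunit, rose by 1 of 4 tested probe sets (log2 change 3.43 ± 0.21), and the reticulon Rtn4 by 2 of 5, the larger on chip 430B (log2 change 2.77 ± 0.34).

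Markers of the other cell types a heart holds differed by list. The summed erythroid signal of 2 tested genes was 314 to 621 in 6-week hearts and 823 to 1527 in control hearts, which do not overlap. That gap is mostly the fall of 1 gene. Alas2, the heme synthesis enzyme of red cell precursors, fell to 172, 271 and 540.5 in 6-week hearts, against 1288, 1311, 675 and 1343 in control hearts (log2 change -1.74 ± 0.43, adjusted p = 0.00735). Hba-a1, a hemoglobin chain, did not pass (log2 change 0.10). The mesothelial sum was 301 to 518 and 495 to 1196 in 6-week and control hearts, with none of 4 tested genes called. The part of either list in the other results was not tested. Of 21 measured macrophage and leukocyte markers none was called with all hearts, while 3 were higher without 6-week heart 3, and their summed signal was 7770 to 12340 in 6-week hearts and 8493 to 12014 in control hearts. Fibroblast markers showed 2 rises, Pi16 (log2 change 1.36 ± 0.20) and Mfap5 (1.47 ± 0.30), and 1 fall, Scara5 (-1.24 ± 0.22), among 13 measured. Cardiomyocyte markers, which check the tissue label, were all tested (12 of 12), with 1 rise (Ryr2) and 1 fall (Pln), and summed signals of 204400 to 294481 in 6-week hearts and 269717 to 357880 in control hearts. No marker on these lists was at 0 in any heart.

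The stage of these changes differed between genes when the 2-week hearts, 14 weeks old, were set beside the 6-week hearts. Between 6 and 2 weeks 345 of 14650 genes rose (2.35%) and 413 fell (2.82%). The probe sets called on chip 430A numbered 1025 (6.59%), but 605 without 6-week heart 1 and 602 and 568 without 2-week hearts 2 and 3. Mthfd2 was the largest rise, at 2045 ± 1586 after 6 weeks and 165 ± 17.0 after 2 weeks (SD, n = 3 and 4, log2 change 3.04 ± 0.32, adjusted p = 2.15e-05), and 6 of 12 measured ATF4 list genes rose. Emcn was at 522 ± 80.4 and 1234 ± 79.7 at 6 and 2 weeks (log2 change -1.17 ± 0.12, adjusted p = 2.15e-05). Of 21 measured endothelial genes 6 fell, and of 18 angiogenic genes 6 fell, from lists that share some members. Postn averaged a like level at 2 weeks, 6287 ± 1355, against 5085 ± 1407 at 6 weeks (log2 change -0.31 ± 0.23, adjusted p = 0.464). Of the proliferation list 7 of 26 measured genes were lower at 6 than at 2 weeks and none was higher. In hearts induced for 6 weeks and then repressed for 2, 20 weeks old, Emcn averaged 1113 ± 105, Abcc9 1084 ± 139 and Mthfd2 205 ± 87.8 (SD, n = 3), while Postn averaged 3975 ± 908. These last levels are given without a test.

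**Figure D3:**
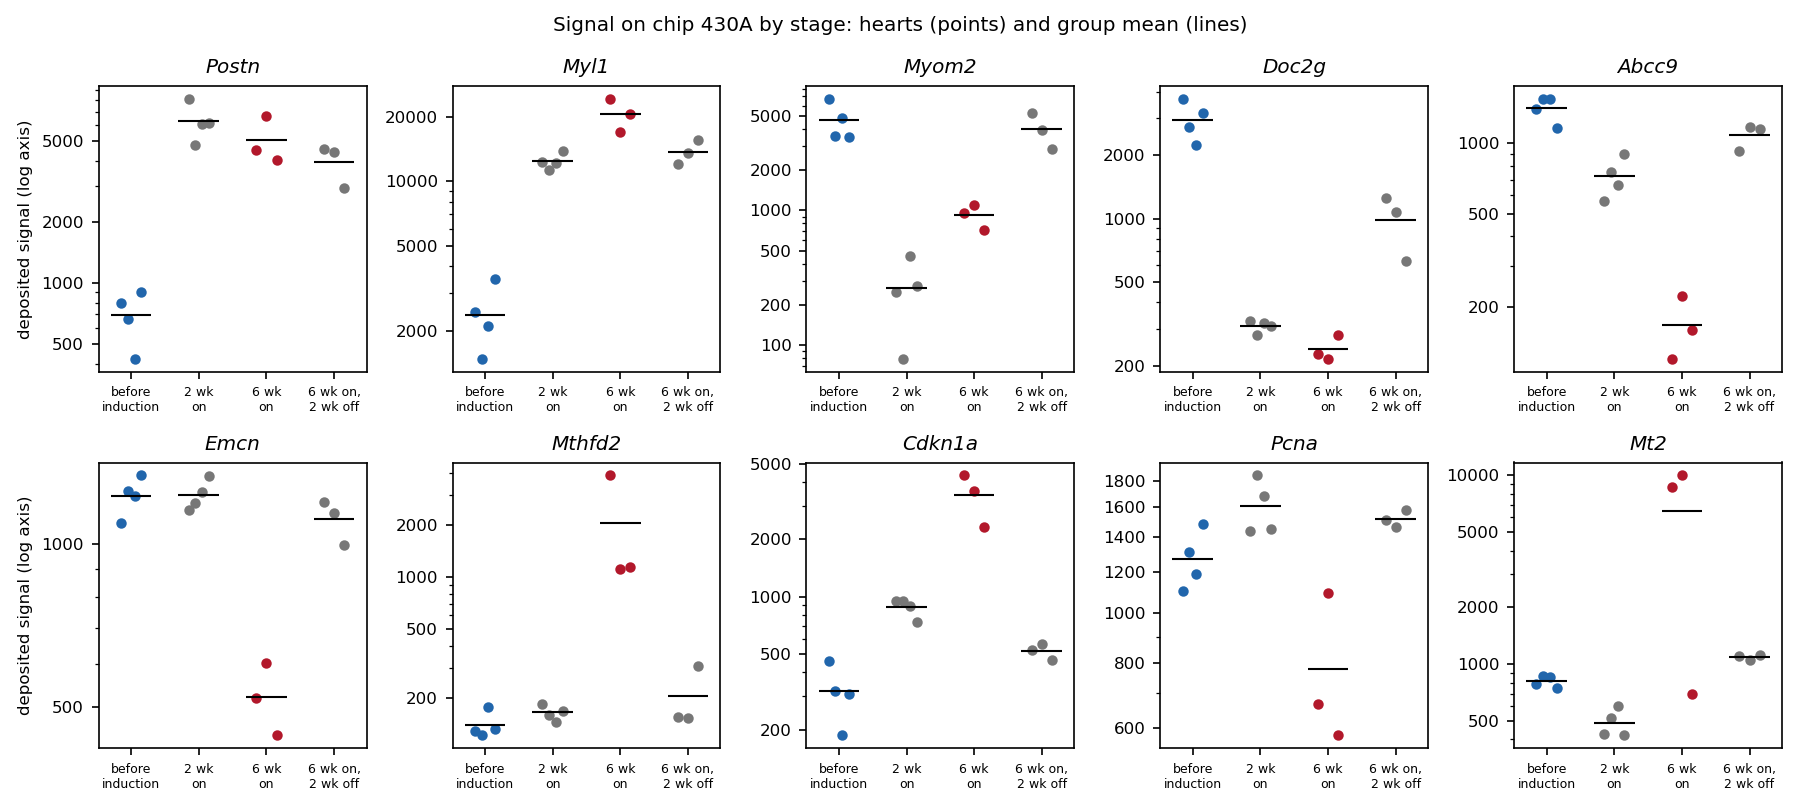
Deposited signal on chip 430A (vertical log axis) of 10 genes before induction, after 2 weeks on, after 6 weeks on and after 6 weeks on with 2 weeks off. Points are hearts (n = 4, 4, 3 and 3) and lines are group means. Emcn averages 522 at 6 weeks and 1232, 1234 and 1113 in the other groups, whereas Postn averages 6287 at 2 weeks and 5085 at 6 weeks.

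The plot of called shares by setting sets the main lists side by side. For every list plotted, the share called in its direction stayed above that of all genes when 6-week heart 3, or control hearts 3 and 4, were left out. In that order 5.97% and 3.95% of all genes fell. Endothelial markers had 5 and 4 falls of 21, and the tricarboxylic acid cycle 4 and 4 of 22. Oxidative phosphorylation had 10 and 12 of 66, and translation factors 4 and 5 of 24. The lists were chosen with earlier results of these data known, so these shares are a description. At a common median, where 3.54% of all genes were lower, the counts of falls were 3 of 66 for oxidative phosphorylation, close to that share, and 3 of 22 for the tricarboxylic acid cycle, above it. With quantile normalization, which is not plotted, these counts were 23 of 66 and 10 of 22, where 7.11% of all genes were lower.

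**Figure D4:**
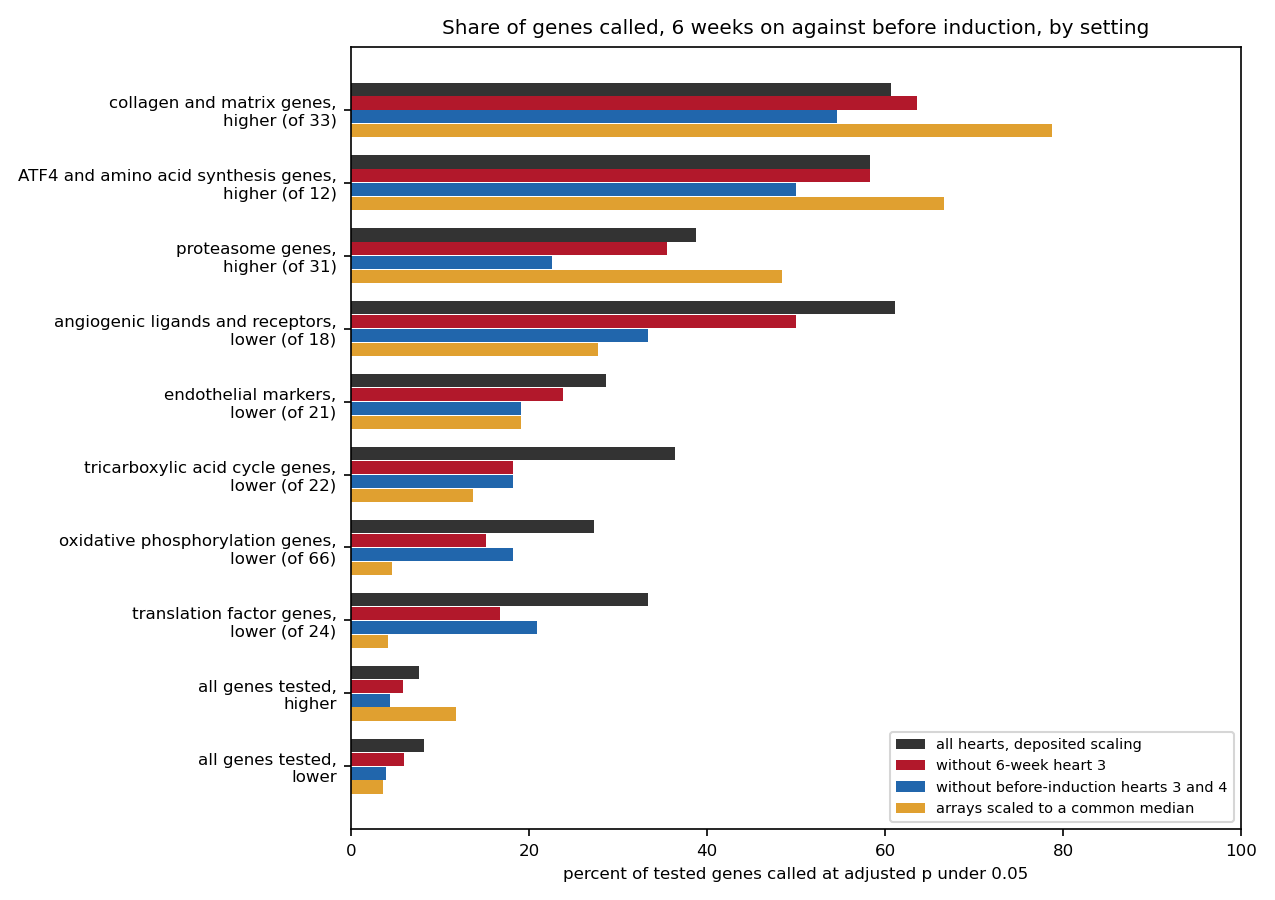
Percent of tested genes called in the list's direction (horizontal axis) for 8 gene lists and for all genes, under 4 settings: all hearts, without 6-week heart 3, without control hearts 3 and 4, and arrays at a common median. For the matrix list 20 of 33 genes were called with all hearts and 18 of 33 without control hearts 3 and 4, beside 7.58% and 4.32% of all genes.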

How the data were processed

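RNA was isolated with the Ultraspec(TM)-II system, labelled with biotin and hybridised by the maker's standard procedures, per the labels. The deposited values are linear intensity values, MAS5 signals per the submitters' processing notes, with a version that the sources used here do not state, and the 2% trimmed mean of every deposited array was 500.2 on chip 430A and 122.5 on chip 430B. They were used as deposited, since this shows that the arrays had been scaled to a common level. Detection calls were not used here. The sources used here give no scan dates, which could mark batches.

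Control probe sets were left out, and probe sets were kept when their mean over all 18 arrays of the chip was at least 20% of the trimmed mean. An offset of 10% of the trimmed mean was added before log2. A linear model with a mean for each of the 5 groups, which share 1 spread, was fitted per chip in limma 3.58.1 (R 4.3.3) using lmFit, then eBayes with its trend option. Benjamini-Hochberg adjustment ran over all tested probe sets of that chip. The procedure was tested on simulated data with known changes. The hearts are from individual mice, so p-values measure the spread between mice, and precision is limited by how many arrays there are. Gene symbols came from the platform annotation (1 symbol for 20380 probe sets of chip 430A and 14661 of 430B), of which 20351 and 14486 match a RefSeq name. The brightest passing probe set stood for a gene, on chip 430A where possible. Promoters are from RefSeq. Alternatives were another offset, filter, scaling, model or set of hearts.

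The members and gene lists were chosen with earlier results of these data known. Named genes are Akt1, the 10 largest rises and falls on chip 430A and the 4 on 430B taken from called probe sets that carry 1 symbol and separate the groups without overlap, up to 5 called members per list by adjusted p, and fixed pairs such as Nppa and Nppb. Against 2 weeks they are the 5 largest rises and falls on 430A and 2 on 430B. Other genes named were chosen after their values were seen. The 100 probe sets on both chips had log2 changes 0.17 lower on 430A than on 430B at the median. Of these 20 were called on 430A and 25 on 430B, with 12 called the same way on both and 0 opposite ways.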

Additional observations from a re-analysis of the deposited data

Results flagged for a closer look

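The named probe sets were searched for single hearts far from the other 3 of their group. Of 354 groups of 4 hearts tested, 28 held a heart whose gap to the nearest other was above Dixon's 95% critical value, where chance gives about 1 in 20 groups. Groups of 3 hearts, and so the 6-week hearts, were not tested this way. Each signal below is given against the range of the other 3 hearts of its group.

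Control heart 1 stood apart in 9 probe sets. It was higher for Thbs4 at 189 against 27.3 to 34.9, Aplnr at 1174 against 532 to 621, Des at 9163 against 5334 to 5682, Synpo2l at 5026 against 2052 to 2200.0, Atf5 at 1068 against 940.3 to 948, Tubb6 at 169.8 against 42.3 to 49.1 and Pi16 at 994 against 602 to 637, and lower for Nxpe4 at 41.9 against 198 to 202 and Acot2 at 139 against 234 to 244. For Thbs4, Des, Atf5 and Pi16 it lay towards the 6-week hearts, and without it their log2 changes were 4.47, 1.02, 0.88 and 1.52, beside 4.08, 0.84, 0.84 and 1.36 with all hearts. Control heart 2 was higher for Sh3gl3 at 168 against 34.4 to 54.4 and Nrp1 at 2907 against 2368 to 2399.9. Control heart 3 was higher for Slc27a1 at 724 against 553 to 571 and lower for Gabarapl2 at 1555 against 1708 to 1732 and Alas2 at 675 against 1288 to 1343. In control heart 4, Akt1 at 652 against 508 to 517, Mfap5 at 1767 against 789 to 873 and Nppa at 26347 against 1459 to 4213 were high and Ttll1 at 3430.3 against 4212 to 4329 low.

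Among the 2-week hearts, heart 1 was higher for Myh7 at 1456 against 817 to 856, Xirp1 at 2217 against 1532 to 1575 and Cspg4 at 629 against 461 to 487. Heart 2 was higher for Gnb3 at 225 against 91.8 to 106 and Dnajb11 at 848 against 578 to 594 and lower for Angpt2 at 30.8 against 70.4 to 77.4. Heart 3 was higher for Mt1 at 2972 against 2119.9 to 2261 and Icam2 at 1188 against 1042 to 1065 and lower for Slc2a9 at 101 against 154 to 164 and Gadd45g at 217 against 308 to 323.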

How the results depend on the processing

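Of 163 called probe sets named by the rule, 110 kept their call under every alternative run and 53 lost it under at least 1. The numbers lost were 24 with arrays at a common median, 25 with the arrays of the 2 groups alone, 22, 18 and 15 without 6-week hearts 3, 1 and 2, 35 without control hearts 3 and 4, 14 with the Actb ratio as a covariate, 12 with array weights and 5 with quantile normalization. The causes were not tested, beyond the fewer arrays in the fits that leave some out. Against the hearts before induction, the probe sets called on chip 430A, 3337 in all, numbered 1890 with the arrays of the 2 groups alone, 1598 without control hearts 3 and 4, and 2356 to 3606 when 1 heart was left out. On chip 430B, 1024 became 461, 517 and 736 to 888 in the same order. At a common median 2141 probe sets of 430A were higher and 927 lower, and 680 and 251 of 430B. Quantile normalization gave 1467 and 1597 on 430A and 533 and 520 on 430B. Against the 2-week hearts 1025 on 430A became 265 with the arrays of the 2 groups alone and 568 to 1031 without 1 heart, and 317 on 430B became 95, 151 without a trend, and 125 to 347 without 1 heart: 125 without 6-week heart 1, 192 without 6-week heart 2, and 128, 171 and 177 without 2-week hearts 2, 3 and 4. At a common median 488 were higher and 267 lower on 430A, and 137 and 90 on 430B, where 424 and 601, and 136 and 181, had been. Directions turned for 2 genes that had not passed: Akt1 on chip 430B had a log2 change of 0.040 at a common median and -0.17 to 0.010 without 1 heart, and Nppb had -0.62 without control hearts 3 and 4 and -0.36 to 0.54 without 1 heart. Replicate numbers mark different mice, and the deviations of same-numbered 6-week and control hearts correlated at -0.05, -0.02 and 0.12 on 430A. With the number as a replicate block 3017 probe sets were called on 430A and 945 on 430B against the control hearts, 899 and 242 against the 2-week hearts, and 5 named probe sets lost their call.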

Other observations

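Some clock genes were lower in the 6-week hearts. Of 14 measured clock genes 6 fell and 1 rose (median log2 change -0.44), beside 8.14% and 7.58% of all genes, and 3 fell and none rose without control hearts 3 and 4, where 3.95% of all genes fell. At a common median 4 fell and 2 rose. Nr1d1, the REV-ERB alpha repressor of the clock, read 557, 622 and 582 at 6 weeks and 1355, 1189.8, 859 and 994 before induction (log2 change -0.83 ± 0.14, adjusted p = 0.000347). Its relative Nr1d2 and the repressor Cry2 had log2 changes of -0.88 ± 0.17 (adjusted p = 0.00125) and -1.42 ± 0.29 (adjusted p = 0.002). Arntl, or BMAL1, which REV-ERB proteins repress, had a log2 change of 1.03 ± 0.25 (adjusted p = 0.00755, and 0.13 without control hearts 3 and 4). The sources used here do not give the hour at which the hearts were taken.

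Metallothioneins, which bind zinc and respond to stress hormones, split the 6-week hearts. Mt2 read 8721, 9981 and 697 at 6 weeks and 791, 866, 851 and 751 before induction (log2 change 2.22 ± 0.53, adjusted p = 0.00652, and 3.44 without 6-week heart 3). Hearts 1 and 2 were high, while heart 3 was below all control hearts. Mt1 read 11382, 11331 and 3720.0 and 3620.0, 3311, 2979 and 2584 in 6-week and control hearts (log2 change 1.32 ± 0.27, adjusted p = 0.00212), and Lcn2, an iron-scavenging acute phase protein, 734, 759 and 178 and 132, 159, 92.1 and 116 (log2 change 1.60 ± 0.32, adjusted p = 0.00202). Of 10 measured genes of this list 5 rose and 2 fell, and 3 rose and none fell without control hearts 3 and 4. The rises numbered 3 without 6-week heart 1 or 2.

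Tubulin and cytoskeleton genes showed 5 rises and 1 fall among 18 measured, 3 rises without 6-week heart 2 or control heart 3, 2 rises and 1 fall without control hearts 3 and 4, and 7 rises and no fall at a common median. Tubb2a, a beta tubulin, read 897, 878 and 1328 at 6 weeks and 541, 436, 395 and 344 before induction (log2 change 1.17 ± 0.19, adjusted p = 0.000311). The microtubule-binding protein Map4 rose as well (log2 change 0.64 ± 0.14, adjusted p = 0.00288). Of 14 measured immediate early genes, which respond to handling of tissue, 0 rose and 1 fell, and none was called without control hearts 3 and 4.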
